A study of Mus musculus with 1073 samples.

Results

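The 9 genes described here encode the main adhesion receptors of the platelet surface: *Itga2b*, *Itgb3*, *Gp1ba*, *Gp1bb*, *Gp5*, *Gp6*, *Gp9*, *Clec1b* and *Treml1*. They were taken as a named list, and all 9 were found among the 15967 genes of the filtered tables. They were followed in 926 single cells of the mouse yolk sac that passed the authors' filter, of 1073 captured, from 13 sorted populations. Each population was a pool of cells with no embryo or culture named for a cell. It was therefore treated as 1 sample, no test was made between populations, and the intervals given for shares of cells (exact Clopper-Pearson, 95%) cover counting error only.

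At E7.25 and E7.75, *Flk1*-GFP+ cells came from embryos with GFP in 1 *Flk1* allele and were dissociated with trypsin. All later cells came from C57BL/6 embryos and were dissociated with collagenase and dispase. Haematopoietic progenitor/colony forming cells (HPC; the labels name them erythro-myeloid progenitors, EMP) were sorted as TER119− CDH5+ CD41+ at E8.25 and E8.5, and as TER119− CDH5− CD45+ CD41low at E9.5 and E10.5. Megakaryocytes (Mk) were TER119− CDH5− CD41+ at E8.5 and TER119− CDH5− CD45− CD41high at E10.5. Primitive erythroid cells (EryP, E8.5 and E10.5), endothelium (Endo, E8.5 and E10.5) and macrophages (Mac, E10.5) were sorted as CD41−. CD41 is the protein product of *Itga2b*, so the gates themselves selected on this gene, and its differences between gates are no finding.

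Platelets hold to an injured vessel wall through a small set of surface receptors that megakaryocytes make in advance. The GPIb-IX-V complex catches von Willebrand factor, GPVI and CLEC-2 bind collagen and podoplanin and signal into the cell, and the integrin αIIbβ3 then binds fibrinogen and links platelets to each other. In the yolk sac the first megakaryocytes appear beside the primitive erythroid cells, and CD41 also marks early blood progenitors.

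The 9 genes lie at the following positions of GRCm38 (GENCODE M21, protein-coding genes). The integrin chains are on chromosome 11, *Itga2b* at 102453297 to 102470122 on the minus strand and *Itgb3* at 104608000 to 104670476 on the plus strand. *Gp1ba* lies at chromosome 11, 70639122 to 70642036 (plus), *Gp1bb* at chromosome 16, 18620317 to 18622403 (minus), *Gp5* at chromosome 16, 30307685 to 30310779 (minus) and *Gp9* at chromosome 6, 87778072 to 87779768 (plus). *Gp6* is at chromosome 7, 4363965 to 4397744 (minus), *Clec1b* at chromosome 6, 129397297 to 129409335 (plus) and *Treml1* at chromosome 17, 48359916 to 48367176 (plus). Of the 2087 exon bases of *Gp1bb*, 1938 are shared with the neighbouring gene *Sept5* and a read-through model on the same strand, so reads there cannot be given to a gene and the *Gp1bb* counts are uncertain. *Sept5* itself had counts in 4 of 73 E10.5 Mk cells (5.48%), against 71 of 73 (97.3%) for *Gp1bb*.

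Because the mean of all 9 genes was higher in E10.5 Mk than in any other population, the sequence just upstream of them is given, from RefSeq (GRCm38.p6), which has a promoter window for 8 of the 9. The 250 bases before the RefSeq start of the gene were searched on both strands for GATAA, a core of the sites bound by GATA factors; capitals mark it, and TTATC is the same motif on the other strand. The windows shown are the 5 that hold the motif.
Gp1ba, chr11:70638872-70639121, plus strand: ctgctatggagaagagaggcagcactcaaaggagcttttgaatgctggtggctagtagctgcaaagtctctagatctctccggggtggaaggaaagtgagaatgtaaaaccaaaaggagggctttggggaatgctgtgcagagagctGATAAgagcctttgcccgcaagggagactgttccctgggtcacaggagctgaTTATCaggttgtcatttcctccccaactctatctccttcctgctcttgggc
Gp5, chr16:30310782-30311031, minus strand: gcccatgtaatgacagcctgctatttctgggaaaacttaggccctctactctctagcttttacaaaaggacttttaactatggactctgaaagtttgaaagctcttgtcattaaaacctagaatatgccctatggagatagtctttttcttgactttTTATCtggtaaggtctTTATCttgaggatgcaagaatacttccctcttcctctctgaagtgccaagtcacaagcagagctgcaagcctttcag
Gp9, chr6:87777820-87778069, plus strand: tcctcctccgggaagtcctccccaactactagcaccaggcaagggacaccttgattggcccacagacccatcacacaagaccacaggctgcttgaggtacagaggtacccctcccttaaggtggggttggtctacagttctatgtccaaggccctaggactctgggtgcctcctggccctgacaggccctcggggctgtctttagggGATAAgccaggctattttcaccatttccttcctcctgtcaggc
Gp6, chr7:4397745-4397994, minus strand: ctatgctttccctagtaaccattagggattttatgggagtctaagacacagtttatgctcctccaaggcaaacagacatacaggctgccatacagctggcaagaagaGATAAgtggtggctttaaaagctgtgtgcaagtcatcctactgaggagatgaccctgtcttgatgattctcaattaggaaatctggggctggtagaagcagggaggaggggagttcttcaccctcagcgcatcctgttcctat
Clec1b, chr6:129397047-129397296, plus strand: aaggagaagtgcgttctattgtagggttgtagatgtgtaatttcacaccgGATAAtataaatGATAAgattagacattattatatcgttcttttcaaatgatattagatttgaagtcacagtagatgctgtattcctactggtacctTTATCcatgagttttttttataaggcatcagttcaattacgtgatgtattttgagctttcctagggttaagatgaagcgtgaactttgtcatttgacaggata
The motif stood once in the windows of *Gp6* and *Gp9*, 2 times in those of *Gp1ba* and *Gp5* and 3 times in that of *Clec1b*. Its first base lay 43 bases before the start of *Gp9*, 93 and 77 bases before that of *Gp5*, and 51 bases before that of *Gp1ba* for the nearer of its copies. It was absent from the windows of *Gp1bb* and *Treml1*. The RefSeq start of *Itga2b* lies inside the gene as placed by GENCODE, so its window is not the sequence upstream of that gene and is not described. Of 32851 windows of the same length, 7418 (22.6%) held it. These letters describe the windows and do not show a bound site.

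Levels are given as the authors' CPM, read counts scaled by 1 factor per cell for its depth. Cells held between 483830 and 5943204 read counts, and the median was 3536330 in E8.5 Mk and 1668712 in E10.5 Mk. Shares of cells were therefore also computed after thinning each cell to 840000 counts, which left out 46 cells. The cells of E8.5, like those of E7.25 and E8.25, were sequenced on a different flow cell from those of E10.5, E9.5 and E7.75, so stage and sequencing run cannot be told apart between E8.5 and E10.5. Mk and HPC of the same stage shared a flow cell. All 96 index pairs were used in more than 1 lane, and no cells had the same counts. Counts of *Xist* together with Y-linked genes (5 or more of each) were held by 293 of 926 cells, 16 of 37 among E8.5 Mk, 8 of 73 among E10.5 Mk, 40 of 89 among E8.5 HPC, 59 of 79 among E8.5 Endo and 26 of 61 among E10.5 Endo. The Mk markers *Pf4*, *Vwf*, *Ppbp* and *Tubb1* summed to between 341 and 20589.5 CPM in E10.5 Mk (median 5307). In E8.5 Mk they summed to between 1.70 and 1679.7 CPM (median 298) with *Ppbp* at 0, against a median of 30.6 CPM in E8.5 HPC. The erythroid markers *Hba-x*, *Hbb-y*, *Hbb-bh1* and *Alas2* were all 4 present in E8.5 Mk, with sums between 44.1 and 141981 CPM (median 25178), whereas their median sum was 19.4 CPM in E10.5 Mk. The part of these transcripts in the E8.5 Mk values was not tested. The macrophage markers *C1qb*, *C1qc*, *Csf1r* and *Cx3cr1* were all at 0 in E8.5 Mk.

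The receptor genes were expressed at their highest in E10.5 Mk. All 9, the gated *Itga2b* among them, had their highest mean there among the 13 populations. In 8 of 9 the next highest mean was that of E8.5 Mk. The exception was *Clec1b*, for which E10.5 endothelium came second. The share of all genes with either order was not computed. These orders describe means over cells. In 71 pairs of neighbouring populations the gap between the means exceeded the larger SD over cells only once, for *Gp9* between E10.5 Mk (311 CPM) and E8.5 Mk (21.7 CPM).

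**Figure D1:**
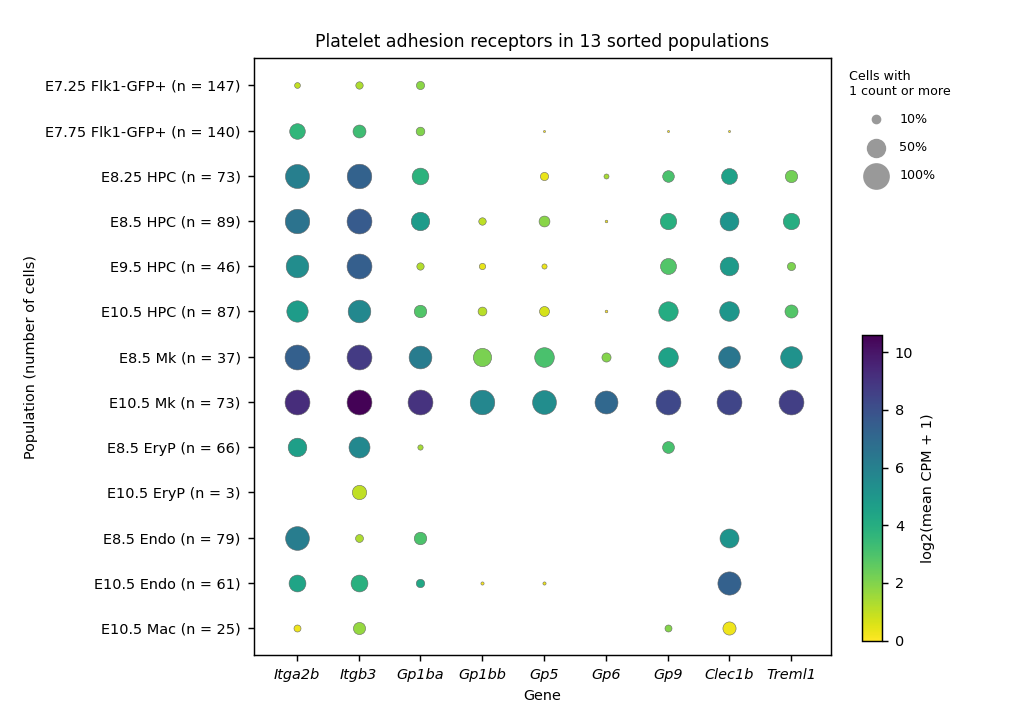
Receptor genes (x axis) in the 13 sorted populations (y axis, with the number of cells). Dot area gives the percent of cells in which a gene was detected (1 count or more) and colour the log2 of the mean CPM + 1; the row of E10.5 Mk is filled for all 9 genes, and *Clec1b* has the largest dot in E10.5 Endo (86.9% of cells).

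Compared per kilobase of exon in E10.5 Mk, the mean level was 353 CPM per kb for *Gp9*, 285 for *Treml1* and 248 for *Itgb3*. *Gp1ba* stood at 192 CPM per kb and *Itga2b* at 110.5, and *Clec1b* at 69.8. The lowest levels per kb were those of *Gp6* (22.3) and *Gp5* (19.3). *Gp1bb* was left out of this order because of its shared exons. Of the other chains of the GPIb-IX-V complex, *Gp9* and *Gp1ba* therefore stood far above *Gp5* per kb.

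The first question was in which order the genes appear before and within the HPC. At E7.25, *Itga2b* had counts in 8 *Flk1*-GFP+ cells (5.44%, interval 2.38 to 10.4), *Itgb3* in 13 (8.84%, 4.79 to 14.6) and *Gp1ba* in 16 (10.9%, 6.35 to 17.1). The other 6 genes had no count at this stage. The share that 3 cells would make, 2.04% here, is given as the limit where no cell held a gene. The exact interval reached further, to 2.48%. At E7.75, *Itga2b* was found in 55 of 140 cells (39.3%, 31.1 to 47.9) and *Itgb3* in 38 (27.1%, 20.0 to 35.3), while *Gp1ba* stayed at 12.1% (7.24 to 18.7). *Gp5*, *Gp9* and *Clec1b* were each found in 1 of 140 cells, and *Gp1bb*, *Gp6* and *Treml1* in none (up to 2.14%). Both integrin chains were thus detected in a larger share of E7.75 cells, and the remaining receptors, apart from *Gp1ba*, were hardly detectable in *Flk1*-GFP+ cells. These stages were read on different flow cells, so stage and sequencing run cannot be told apart. The cells of each were read in a pair of lanes, with *Itga2b* shares of 6.85% and 4.05% at E7.25 and of 37.7% and 40.2% at E7.75.

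In E8.25 HPC, *Itgb3* was found in 97.3% of 73 cells (interval 90.5 to 99.7) and *Itga2b* in 93.2% (84.7 to 97.7). *Gp1ba* followed with 45.2% (33.5 to 57.3) and *Clec1b*, the podoplanin receptor, with 41.1% (29.7 to 53.2). *Treml1*, a receptor of the platelet α-granule membrane, was in 24.7% of cells (15.3 to 36.1) and *Gp9* in 21.9% (13.1 to 33.1). Among these 4 genes, the intervals of neighbours in the order overlapped. *Gp5* was in 11.0% of cells and *Gp6* in 4.11%, and *Gp1bb* was in none (up to 4.11%).

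*Itga2b* and *Itgb3* had thus reached a share of 50% of HPC by E8.25. *Gp1ba* (55.1%, 44.1 to 65.6) and *Clec1b* (57.3%, 46.4 to 67.7) did so in E8.5 HPC. *Gp9* did so last, in E10.5 HPC (60.9%, 49.9 to 71.2). The other 4 genes did not reach it in any HPC stage. The order was the same at equal depth. The intervals of *Gp1ba* and *Clec1b* at E8.25 and E8.5, and of *Gp9* from E8.5 to E10.5, included 50%. Their stage of reaching it is therefore not settled. At a share of 25%, *Gp1ba* and *Clec1b* stood with the integrin chains at E8.25, and *Gp9* and *Treml1* followed at E8.5. With 10 counts or more asked of a cell, *Gp1ba* and *Gp9* reached 50% in no HPC stage and *Clec1b* did so at E9.5. *Treml1* peaked at 43.8% of E8.5 HPC (33.3 to 54.7), *Gp5* at 19.1% (11.5 to 28.8) and *Gp1bb* at 12.6% of E10.5 HPC (6.48 to 21.5). *Gp6*, which encodes the collagen receptor GPVI, stayed at or under 4.11% in all 4 HPC stages.

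**Figure D2:**
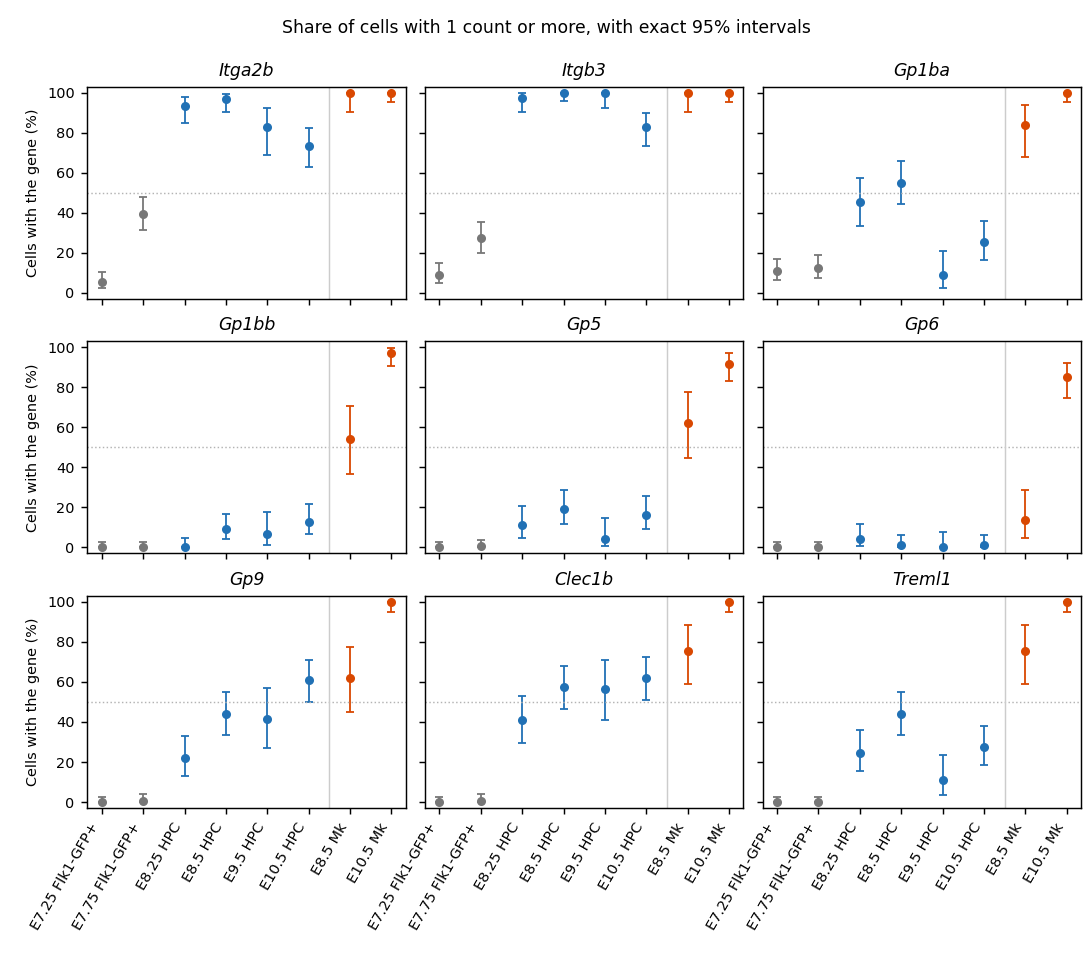
Percent of cells in which each gene was detected, at 1 count or more (y axis), in *Flk1*-GFP+ cells (grey), HPC (blue) and Mk (orange) of each stage (x axis); bars are exact 95% intervals and the dotted line marks 50%. *Itga2b* and *Itgb3* pass 50% at E8.25, and *Gp6* stays near 0 in HPC and in 13.5% of E8.5 Mk before 84.9% of E10.5 Mk.

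Within the HPC, the genes did not follow one course from stage to stage. Between E8.25 and E8.5, which shared a gate and a flow cell, *Gp1ba* went from a mean of 12.7 to 27.4 CPM (log2 ratio of mean CPM + 1, 1.05) and *Treml1* from 3.83 to 14.8 CPM (1.71). These 2 of 9 members were higher by a log2 ratio of 1 or more, the fold used throughout, with a mean of 10 CPM or more in a group. Of all 8879 genes at that level, 2.86% were. Of the 9 members, 6 were at that level. *Itgb3* (159.2 and 191 CPM) and *Itga2b* (66.3 and 92.4 CPM) differed by less than that fold. With a pseudocount of 10 CPM neither call held (*Gp1ba* 0.72, *Treml1* 0.84), and without the cells holding *Xist* and Y-linked counts that of *Gp1ba* ended (0.80).

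Between E8.5 and E9.5 the gate changed from CDH5+ to CDH5− CD45+ CD41low and the flow cell changed too, so the effect of stage cannot be told apart from either. *Gp1ba* showed the largest difference of the 9 genes there. In E8.5 HPC it ranged from 0 to 336 CPM per cell with a median of 1.22, and in E9.5 HPC from 0 to 34.6 CPM with a median of 0 and counts in 4 of 46 cells (8.70%, 2.42 to 20.8). Its mean was 20.3-fold lower at E9.5 (1.35 against 27.4 CPM). *Treml1* was 4.51-fold lower, *Gp9* 2.25-fold lower and *Itga2b*, a gated gene, 2.20-fold lower. In all, 4 of 9 members were past the fold in that direction, against 13.1% of 9250 genes. Of the 9, 6 had a mean of 10 CPM or more at either stage, as all 9250 genes had. With a pseudocount of 10 CPM the call held for *Gp1ba* and ended for *Itga2b* (−0.98), *Gp9* (−0.57) and *Treml1* (−0.90); that of *Gp9* also ended under scaling by the cell's own total (−0.99). *Itgb3* and *Clec1b* were not: *Itgb3* was found in 46 of 46 E9.5 HPC at a mean of 171 CPM.

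From E9.5 to E10.5, with gate and flow cell shared, *Itgb3* was lower (171 to 49.8 CPM, log2 ratio −1.76) and *Gp9* higher (6.31 to 16.1 CPM, 1.22). They were the only members past the fold, 1 in each direction, where 8.73% of 9050 genes were lower and 5.86% higher. Only 4 of the 9 members had a mean of 10 CPM or more at either stage. *Gp1ba*, under that level at both, had means of 1.35 and 6.37 CPM (log2 ratio 1.65) and shares of 8.70% and 25.3%. The *Gp9* call ended with a pseudocount of 10 CPM (0.68). The E9.5 HPC were deeper (median 3082738 counts) than the E10.5 HPC (1609583). *Clec1b* kept a nearly level course, with means of 23.0, 33.4, 28.2 and 32.1 CPM and shares of 41.1%, 57.3%, 56.5% and 62.1% from E8.25 to E10.5. All neighbouring intervals of these shares overlapped.

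Set directly against E8.5, 4 of 9 members, the gated *Itga2b* among them, were lower past the fold in E10.5 HPC, against 12.0% of 9184 genes. These were *Itga2b* (92.4 to 26.2 CPM, −1.78), *Itgb3* (191 to 49.8 CPM, −1.92), *Gp1ba* (27.4 to 6.37 CPM, −1.95) and *Treml1* (14.8 to 6.13 CPM, −1.14). The gate went from CD41+ to CD41low between these stages, so the *Itga2b* difference is no finding. The *Treml1* call ended with a pseudocount of 10 CPM (−0.62). No member was higher past the fold, against 9.02% of genes. *Gp9* (14.2 and 16.1 CPM) and *Clec1b* (33.4 and 32.1 CPM) were close to level. The median over all 9 members was −1.14, though only 6 of them had a mean of 10 CPM or more at either stage. Over the 9184 genes at that level it was −0.08. The cells overlapped for every member, and no E10.5 HPC exceeded all E8.5 HPC for any of these 4 genes. The erythroid markers were lower as well, with median sums of 135.5 and 0 CPM. The summed endothelial markers were lower with them (medians 338 and 20.7 CPM), as was *Cdh5* (124.3 and 13.0 CPM), part of the gate, and the macrophage markers *C1qb*, *Csf1r* and *Cx3cr1* were higher in E10.5 HPC (99.9, 99.6 and 114.3 CPM). The part of these transcripts in the difference was not tested.

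The second question was how E10.5 Mk differed from E8.5 Mk. All 9 members, the gated *Itga2b* among them, were higher at E10.5 past the fold. Of the 8983 genes whose mean was at least 10 CPM at either stage, 16.3% were. The median log2 ratio of the members was 2.83, beside −0.05 over those genes. The median depth was 3536330 counts in E8.5 Mk and 1668712 in E10.5 Mk.

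The integrin chains were found in every Mk cell of both stages. *Itga2b*, the αIIb chain, ranged from 7.30 to 614 CPM (median 138.2) in 37 E8.5 Mk and from 34.9 to 6096 CPM (median 387) in 73 E10.5 Mk. The groups overlapped, with 21 of 73 E10.5 cells above every E8.5 cell, and the mean was 3.66-fold higher (165 and 603 CPM). The later gate took CD41high cells, which bears on this gene directly. *Itgb3*, the β chain that completes the fibrinogen receptor, ranged from 13.8 to 1422 CPM (median 412) at E8.5 and from 240.1 to 9813 CPM (median 1048) at E10.5. Its mean was 3.38-fold higher (433 and 1466 CPM), with 70 of 73 E10.5 cells above the E8.5 median.

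Among the chains that bind von Willebrand factor, *Gp1ba*, which carries the binding site, ranged from 0 to 343 CPM (median 41.0) at E8.5 and from 3.16 to 2416 CPM (median 408) at E10.5. It was found in 31 of 37 and in 73 of 73 cells, and its mean was 7.20-fold higher (72.4 and 521 CPM). *Gp9*, needed for the complex to reach the surface, had the only gap between stages larger than the SD over cells. It ranged from 0 to 144.9 CPM (median 1.19) at E8.5 and from 2.31 to 1237 CPM (median 291) at E10.5, and 56 of 73 E10.5 cells lay above every E8.5 cell. Its mean was 14.3-fold higher, and its share went from 62.2% (44.8 to 77.5) to 100% (95.1 to 100).

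*Gp5*, the chain cleaved by thrombin, and *Gp1bb* were low in E8.5 Mk. For *Gp5* the cells ranged from 0 to 145.2 CPM (median 0.698) at E8.5 and from 0 to 799 CPM (median 14.7) at E10.5, and only 5 of 73 E10.5 cells lay above every E8.5 cell. Its mean was 5.92-fold higher (7.15 and 42.3 CPM). *Gp1bb* ranged from 0 to 26.5 CPM (median 0.275) at E8.5 and from 0 to 405 CPM (median 29.7) at E10.5. The share of cells with it was 54.1% (36.9 to 70.5) and 97.3% (90.5 to 99.7), and its mean was 15.3-fold higher, within the uncertainty of its shared exons.

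*Gp6* showed the largest ratio of the 9. In E8.5 Mk only 5 of 37 cells had counts (13.5%, 4.54 to 28.8), the highest at 50.5 CPM and the median at 0. In E10.5 Mk 62 of 73 cells had counts (84.9%, 74.6 to 92.2), with a median of 82.7 and a highest value of 725 CPM. The mean was 46.0-fold higher (2.87 and 131.9 CPM), and 43 of 73 E10.5 cells lay above every E8.5 cell. No interval of a share overlapped between the stages for *Gp6*, *Gp9*, *Gp5*, *Gp1bb*, *Gp1ba*, *Clec1b* or *Treml1*. The share of all genes without such an overlap was not computed.

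*Clec1b* ranged from 0 to 476 CPM (median 8.71) in E8.5 Mk and from 1.30 to 1571 CPM (median 321) in E10.5 Mk. Of the E8.5 cells, 28 of 37 had counts and 20 of 37 lay above the lowest E10.5 cell; the mean was 4.02-fold higher (85.4 and 343 CPM). At equal depth the E8.5 share was 56.8% in place of 75.7%. *Treml1* ranged from 0 to 130.5 CPM (median 12.9) at E8.5 and from 14.1 to 4618 CPM (median 274) at E10.5. Here 60 of 73 E10.5 cells lay above every E8.5 cell, and the mean was 11.0-fold higher (36.3 and 400 CPM).

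Embryonic globin transcripts (*Hba-x*, *Hbb-y* and *Hbb-bh1*) summed to more than 1000 CPM in 34 of the 37 E8.5 Mk. Without them only 3 cells remained, and 7 of 9 members were higher past the fold at E10.5. The share of all genes past the fold against these 3 cells was not computed. The call ended for *Itgb3* (log2 ratio 0.83) and for *Clec1b* (0.09), whose values in the 3 cells had means of 822 and 324 CPM. *Gp6* had no count in these 3 cells. The globin transcripts and the receptor levels cannot be told apart at this number of cells.

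**Figure D3:**
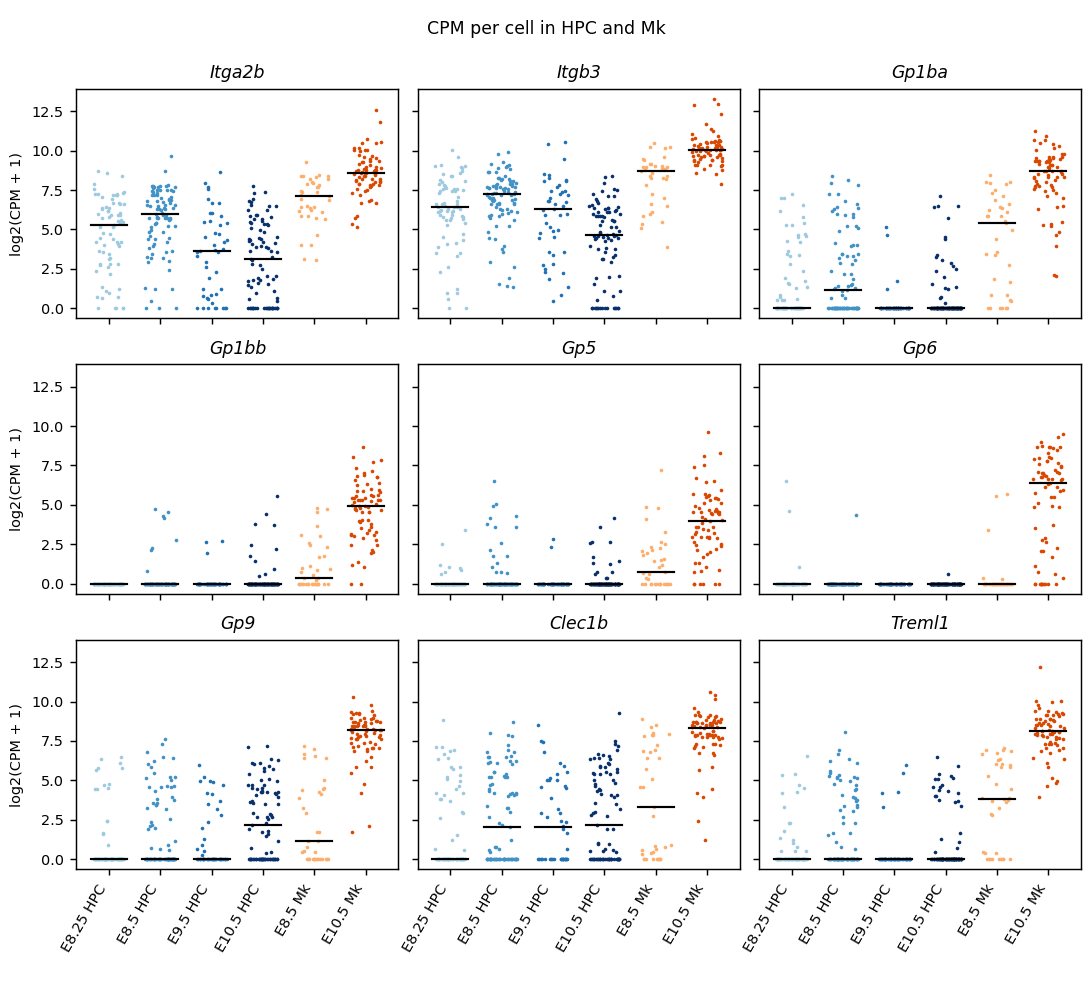
CPM of each gene in every HPC and Mk cell, as log2(CPM + 1) on the y axis, by population and stage on the x axis; each point is a cell and the black line is the median. E10.5 Mk lie mostly above the other groups for *Gp9* and *Treml1* (medians 291 and 274 CPM), whereas E8.5 Mk spread from 0 upwards for *Clec1b* and *Gp9*.

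Mk were also compared with HPC of the same stage, which shared their flow cell. At E8.5, 4 of 9 members were higher in Mk past the fold, *Itgb3* (2.27-fold), *Gp1ba* (2.64-fold), *Clec1b* (2.56-fold) and *Treml1* (2.46-fold), against 6.28% of 8963 genes. The call of *Treml1* ended with a pseudocount of 10 CPM (log2 ratio 0.90). The difference in *Itga2b* was smaller, 165 against 92.4 CPM, and that in *Gp9* was 21.7 against 14.2 CPM. For *Gp9*, *Treml1* and *Itga2b* no E8.5 Mk exceeded all E8.5 HPC. The 3 remaining genes had means under 10 CPM in both. In the 3 E8.5 Mk with up to 1000 CPM of globins, 6 members were past the fold. The share of all genes past it with these 3 cells was not computed.

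At E10.5 all 9 members were higher in Mk past the fold, against 14.8% of 9241 genes. *Itga2b* is among them, and its protein was gated as CD41high in Mk and CD41low in HPC. The median log2 ratio was 4.75, beside −0.02 over those genes. *Itgb3* was the most clearly separated, with 72 of 73 Mk above every HPC, 29.4-fold in the mean. *Gp1ba* (81.8-fold), *Gp5* (70.1-fold) and *Treml1* (65.2-fold) had larger ratios from lower HPC levels. *Gp6* had 2 counts in 1 of 87 HPC and 21325 counts in Mk. The smallest ratio was that of *Clec1b* (10.7-fold), for which 5 of 73 Mk lay above every HPC, since single HPC reached 623 CPM.

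**Figure D4:**
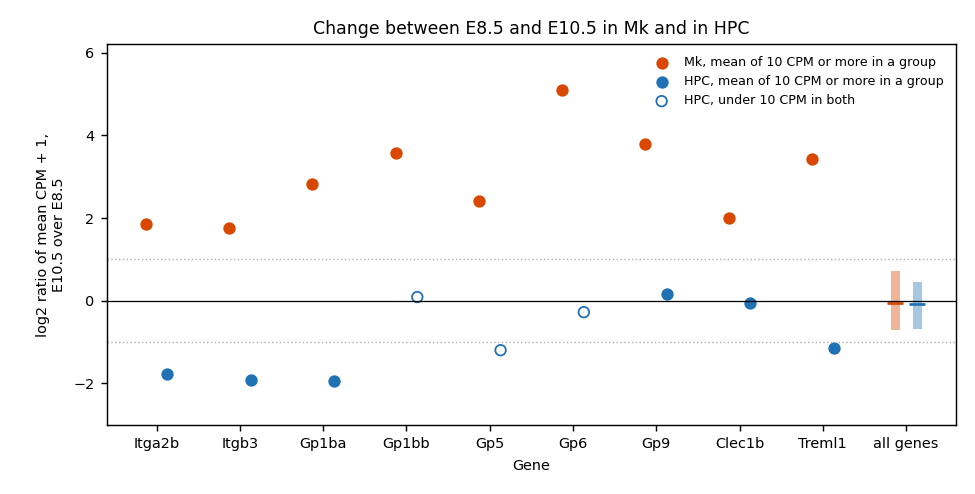
Difference between E10.5 and E8.5, as the log2 ratio of mean CPM + 1 (y axis), for each gene in Mk (orange) and HPC (blue); open circles have means under 10 CPM at both stages, bars on the right span the middle 50% of all genes, and dotted lines mark the fold of 1. All 9 genes lie above 1 in Mk (1.76 to 5.10), and 4 of 9 lie below −1 among the filled HPC points.

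How many of the 9 genes a cell held was counted next. The median was 4 in E8.5 HPC and 3 in the HPC of the other stages, 6 in E8.5 Mk (lowest 3, highest 9) and 9 in E10.5 Mk (lowest 7). All 9 were found together in 57 of 73 E10.5 Mk, in 4 of 37 E8.5 Mk and in no HPC. A count of 5 or more was reached by 17.8% of E8.25 HPC (9.84 to 28.5), 37.1% of E8.5 HPC (27.1 to 48.0), 13.0% of E9.5 HPC (4.94 to 26.3) and 34.5% of E10.5 HPC (24.6 to 45.4). It was reached by 86.5% of E8.5 Mk (71.2 to 95.5) and 100% of E10.5 Mk (95.1 to 100). In E8.5 HPC 14 of 89 cells held 7 or 8 of the genes, counts that E10.5 HPC reached in 3 of 87 cells.

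**Figure D5:**
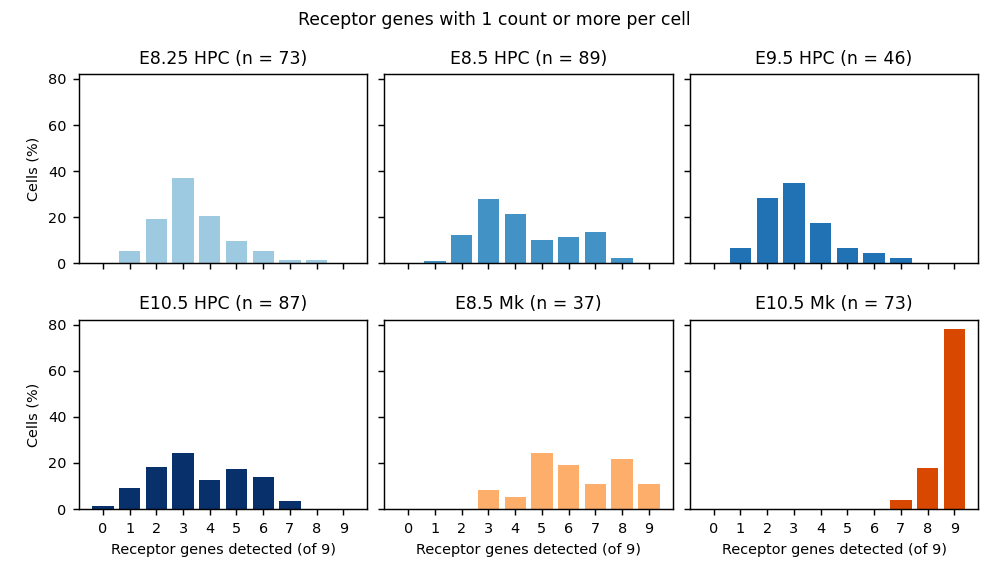
Number of the 9 receptor genes with 1 count or more per cell (x axis) against the percent of cells (y axis) in each HPC and Mk population. E10.5 Mk stand at 7 to 9 genes, E8.5 Mk spread from 3 to 9, and HPC have their highest bar at 3.

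Co-detection showed which genes came in the same cells. Among 295 HPC of all stages, 248 held both integrin chains, 30 held *Itgb3* alone and 8 held *Itga2b* alone. *Gp5* and *Treml1* were found together in 31 of these HPC, *Gp5* alone in 10, *Treml1* alone in 55 and neither in 199. For *Clec1b*, Spearman's rho of its CPM over the 295 cells was 0.01 with that of *Itga2b* and also 0.01 with that of *Gp1ba*. Both *Clec1b* and *Gp1ba* were held by 57 HPC, *Gp1ba* alone by 51 and neither by 83, and the rest held *Clec1b* alone. In E8.5 Mk the median rho over the 36 pairs of genes was 0.35, the highest 0.70 for *Itgb3* with *Gp9* (37 cells). Cells of a population share their sort, capture and run, and these values are descriptions.

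HPC of each stage were divided by whether *Gata1*, the GATA factor of erythroid and megakaryocytic cells, had counts. At E8.5, *Gp1ba* was found in 66.7% of 69 cells with *Gata1* (54.3 to 77.6) and in 15.0% of 20 cells without (3.21 to 37.9). *Treml1* was found in 52.2% (39.8 to 64.4) and 15.0% (3.21 to 37.9). *Gp5* was found in 24.6% of cells with *Gata1* (15.1 to 36.5) and in none of those without, whose interval of 0 to 16.8% overlaps it. *Clec1b* was at 58.0% and 55.0%, with overlapping intervals. At E8.25 it was in 33.3% of cells with *Gata1* (20.4 to 48.4) and in 56.0% without (34.9 to 75.6), where the intervals overlap too. At E10.5 *Treml1* was in 38.2% of 55 cells with *Gata1* (25.4 to 52.3) and in 9.38% of 32 without (1.98 to 25.0). At E8.25 and E9.5 its intervals overlapped. Those of *Gp1ba* overlapped at every stage but E8.5, with 50.0% and 36.0% at E8.25, 20.0% and 5.56% at E9.5, and 30.9% and 15.6% at E10.5. Median depth was alike on both sides at E8.5 (1555237 and 1567142 counts).

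Outside HPC and Mk, the CD41− populations held *Itga2b* transcripts too. In E8.5 endothelium 72 of 79 cells had counts (91.1%, 82.6 to 96.4), with a median of 23.2 CPM and a highest value of 752 CPM. At 10 counts or more the share was 72.2%. Its partner *Itgb3* was in 10.1% of the same cells (4.47 to 19.0), so few of them could hold both integrin chains. Of the 72 endothelial cells with *Itga2b*, 22 held *Pf4* or *Tubb1*. In E10.5 endothelium *Itga2b* was in 45.9% of 61 cells (33.1 to 59.2) and its mean was 3.44-fold lower than at E8.5 (20.3 and 69.8 CPM). Without the cells holding *Xist* and Y-linked counts the *Itga2b* means were 31.8 and 51.4 CPM and the shares 48.6% and 90.0%. *Itgb3* was in 45.9% of E10.5 endothelial cells (33.1 to 59.2), with a mean 9.09-fold higher than at E8.5 (13.4 and 1.48 CPM). The *Gp1ba* mean was 2.59-fold higher (18.4 and 7.10 CPM), with counts in 11.5% of cells against 25.3% at E8.5. In all, 3 of 9 members were higher and 1 lower past the fold, against 21.2% and 16.4% of 9938 genes. Only 4 of the 9 members had a mean of 10 CPM or more at either stage, as all 9938 genes had. E8.5 EryP held *Itgb3* in 71.2% of 66 cells (58.7 to 81.7) and *Itga2b* in 56.1% (43.3 to 68.3), at means of 48.7 and 24.5 CPM, and *Gp9* in 22.7%; *Clec1b*, *Treml1*, *Gp5*, *Gp6* and *Gp1bb* were found in none (up to 4.55%).

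In E10.5 endothelium, *Clec1b* was found in more cells than any other of the 9 genes. It ranged from 0 to 446 CPM (median 2.04) in 79 E8.5 endothelial cells and from 0 to 2107 CPM (median 42.6) in 61 at E10.5. The share went from 58.2% (46.6 to 69.2) to 86.9% (75.8 to 94.2), with intervals that did not overlap, and the mean was 4.88-fold higher (33.6 and 164 CPM); flow cell and stage cannot be told apart here either. Without the cells holding *Xist* and Y-linked counts the shares were 65.0% of 20 cells (40.8 to 84.6) and 80.0% of 35 cells (63.1 to 91.6), with overlapping intervals, and the means 45.8 and 159.4 CPM. Of the 53 E10.5 endothelial cells with *Clec1b*, 2 held *Pf4* or *Tubb1*, and *Gp6*, *Gp9* and *Treml1* were at 0 in all 61. In macrophages *Clec1b* had 8 counts in all, in 7 of 25 cells, and *Gp1ba*, *Gp1bb*, *Gp5*, *Gp6* and *Treml1* had none (up to 12.0%).

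Genes that work with the receptors were followed from lists in the same Mk comparison. Of 12 genes that signal below GPVI, CLEC-2 and GPIb, 9 were higher in E10.5 Mk past the fold and none was lower, against 16.3% and 12.7% of all genes, and the median was 1.79. Among those most abundant in E10.5 Mk, the filamin *Flna*, which anchors GPIb, went from 127.9 to 720 CPM, the adaptor *Lcp2* from 78.7 to 550 CPM and the kinase *Syk* from 84.9 to 432 CPM, while *Ywhaz* stood at 1395 and 1141 CPM. In HPC, 3 of the 12 were higher and 1 lower at E10.5, against 9.02% and 12.0% of all genes. Of the 12, 11 had a mean of 10 CPM or more in HPC of either stage. Of 7 genes of integrin activation, 5 were higher in E10.5 Mk, among them *Fermt3*, which encodes kindlin-3 (855 to 1841 CPM), the talin gene *Tln1* (544 to 1219 CPM) and *Rasgrp2* (105.95 to 303 CPM); *Rap1b* stood at 1755 and 2800 CPM, under the fold. In HPC 1 was higher and 2 were lower, which is to be read against the same 9.02% and 12.0%. In both comparisons, 6 of the 7 had a mean of 10 CPM or more at either stage.

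Of 9 ligand genes, the fibrinogen genes *Fga*, *Fgb* and *Fgg* are outside the filtered table and 3 had a mean of 10 CPM or more in Mk. *Thbs1*, thrombospondin, went from 709 to 3569 CPM and *Vwf* from 35.9 to 259 CPM, both past the fold. *Col1a2* was lower (10.4 and 0.978 CPM). Of 14 other adhesion receptors, 7 were higher and none lower in E10.5 Mk, against 16.3% and 12.7% of all genes: the tetraspanin *Cd9* went from 250.1 to 1267 CPM, the laminin receptor chain *Itga6* from 16.7 to 204 CPM, *Itgb1* from 140.6 to 314 CPM and *F11r* from 88.9 to 308 CPM. In HPC 1 was higher and 3 were lower, against 9.02% and 12.0%. In both comparisons, 11 of the 14 had a mean of 10 CPM or more at either stage. Of 8 transcriptional regulators of megakaryocytes, 0 were past the fold in either direction, against 16.3% and 12.7% of all genes. Their median log2 ratio was 0.18. *Gata1* (392 and 457 CPM), *Fli1* (663 and 734 CPM) and *Gfi1b* (371 and 393 CPM) were close to level, and *Tal1* stood at 130.9 and 217 CPM. In HPC *Gata2* was higher and *Tal1* lower past the fold, 1 of 8 in each direction, against 9.02% and 12.0% of all genes.

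The genes whose mean profile over the 13 populations was most like that of the receptors other than *Itga2b* were *Stx11* (Pearson's r 0.97), *Cc2d2b* (0.96) and 3 clone-named models, RP23-242J3.3, RP23-242J3.2 and RP23-242J3.4 (0.96, 0.96 and 0.95), of 12315 genes compared. *Stx11* stood at 43.2 CPM in E10.5 Mk and 4.35 CPM in E8.5 Mk. Within the receptor genes, r over the 13 populations was highest between *Gp1bb* and *Gp5* (0.97) and lowest between *Gp6* and *Clec1b* (0.55). The populations differ in depth and share flow cells, and a single population, E10.5 Mk, leads all profiles.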

How the data were processed

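Single cells of pooled mouse yolk sacs were sorted, captured on Fluidigm C1 and sequenced. The authors aligned the reads with Rsubread to Ensembl release 84 (GRCm38), counted reads per gene with featureCounts and filtered cells and genes, giving the deposited count tables. The deposited CPM table, a signal scaled by the authors with scran, is the count of each gene times 1 factor per cell. The reads carry no molecular identifiers. The authors' versions are not given in the sources used here. Members and lists were chosen with earlier results of these data known.

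From these tables, per population, were computed the share of cells in which a gene was detected, at 1 count or more (exact Clopper-Pearson interval, 95%; limit of 3 cells where none was found), the CPM per cell and log2 ratios of mean CPM + 1. Past the fold means a log2 ratio of 1 or more in size with a mean of at least 10 CPM in either group. Each population was 1 sample, so no test was made. Named were the members, up to 4 genes per list with the highest mean in E10.5 Mk, *Sept5* and the 5 genes with the most similar profile. *Gata2* was named after its values were seen. Some genes of the regulator and marker lists are not reported here and were left out of their counts and sums. A cell was called as holding *Xist* and Y-linked genes at 5 counts of each. Scripts ran in Python 3.11.15 with numpy 2.4.6, pandas 2.3.3 and scipy 1.17.1, and were tested on simulated data. Alternatives were other pseudocounts, detection at 10 counts, an onset share of 25% and thinning to 840000 counts. Own-total scaling and the removal of cells with globin or both-sex transcripts were also used.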

Additional observations from a re-analysis of the deposited data

Results flagged for a closer look

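Between E8.5 and E10.5, 4 of the 9 receptor genes, the gated *Itga2b* among them, were past the fold in opposite directions in HPC and Mk. The share of all genes with such opposite directions was not computed. Taken singly, 12.0% of genes were lower in HPC and 16.3% higher in Mk. The log2 ratio was −1.781 in HPC and 1.87 in Mk for *Itga2b*, −1.916 and 1.76 for *Itgb3*, −1.945 and 2.83 for *Gp1ba*, and −1.145 and 3.43 for *Treml1*. The difference between these ratios was not tested. The HPC value of *Treml1* was within the fold with a pseudocount of 10 CPM (−0.62). The HPC gate changed from CDH5+ to CD45+ CD41low between these stages and the Mk gate from CD41+ to CD41high, so stage and gate cannot be told apart.

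Among 19 E10.5 endothelial cells outside the authors' filter, whose median total was 415116 counts, *Clec1b* had counts in 19 (100%), with 314 counts in all. Among the E10.5 endothelial cells inside it the share was 86.9% (75.8 to 94.2).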

How the results depend on the processing

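No paired analysis was possible because each population was 1 sample and no result came from a test. Leaving out a replicate was not possible for the same reason. The counts of members past the fold in E10.5 over E8.5 (Mk and HPC) and in Mk over HPC kept within 1.5 times of their value under pseudocounts of 0.1 and 10 CPM, scaling by the cell's own total and removal of cells with *Xist* and Y-linked counts; with 10 CPM, *Treml1* lost its call in HPC (−0.62) and in E8.5 Mk over HPC (0.90). The alternatives for neighbouring HPC stages, for endothelium and that removal in Mk over HPC were chosen after seeing the data. With a pseudocount of 10 CPM, 0 in place of 2 members were higher in E8.5 over E8.25 HPC, 1 in place of 4 lower in E9.5 over E8.5 HPC and 0 in place of 1 higher in E10.5 over E9.5 HPC, since a larger pseudocount draws low genes to a ratio of 0. Without cells with *Xist* and Y-linked counts, 1 in place of 2 was higher in E8.5 over E8.25 HPC. Without E8.5 Mk with over 1000 CPM of embryonic globins, which leaves 3 cells, *Gp5* (−1.295) and *Gp6* (−0.283) turned from higher to lower in E8.5 Mk over E8.5 HPC. Detection at 10 counts or more gave 2 members in place of 4 that reach 50% by E8.5 HPC. The share of cells with 5 or more members then became 8.22% in E8.25 HPC, 24.7% in E8.5 HPC, 17.2% in E10.5 HPC and 59.5% in E8.5 Mk. Taking the median over cells in place of the mean, 23 in place of 41 gene and population pairs were at 10 CPM or more. The other causes were not tested.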
